A study of Mus musculus with 24 samples.

Results

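The 9 genes described here, Mbp, Mobp, Mal, Cnp, Mag, Mog, Ermn, Hapln2 and Klk6, are genes of myelin and of the oligodendrocytes that make it, measured in RNA of a brain endothelial fraction. They were taken by gene symbol from every table, 9 of the 45468 genes listed, and the set was named with earlier results of these data known. Mouse brains were taken before birth (E15.5), at 2 ages in the first days after it (P5 and P9) and from adults, with 3 libraries of each of 2 genotypes at each stage, 24 libraries in all, described as independent biological replicates. Both genotypes carried Sox17flox/flox alleles and both received tamoxifen. Animals labelled Sox17flox/flox/Cdh5(PAC)-Cre-ERT2- are called wt, and those labelled Sox17flox/flox/Cdh5(PAC)-Cre-ERT2+ (sox17iECKO) are called KO. In the latter the promoter of Cdh5, an endothelial cadherin gene, drives a recombinase that tamoxifen activates, so the deletion is aimed at endothelial cells. For E15.5, pregnant females had 2 intraperitoneal injections of 1 mg tamoxifen, at 11.5 and 13.5 days post-coitum. Pups for P5 and P9 had 100 μg under the skin at postnatal day 1. Adults were 6 weeks old at the first of 4 injections of 1.5 mg, and brains were taken 1 week after the last.

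Oligodendrocytes wrap axons in layers of their own membrane, and the compacted layers are myelin. In the rodent brain the cells arise from dividing precursors, pass through a short premyelinating state, and lay down most myelin after birth, from the brainstem forward. Endothelial cells do not make myelin. Here brains were dissociated, myelin debris and red cells were removed, leukocytes were depleted with CD45 beads and the endothelium was captured with CD31 beads. E15.5 and P5 brains were dissociated with 1 kit, and P9 and adult brains with another made for adult brain.

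Libraries held 12301779 to 19830600 counts. Levels are CPM, counts scaled to library size, after TMM scaling. With no count in a library, counting error alone leaves room for 0.151 to 0.244 CPM. Sox17, the targeted gene, was at 78.3 to 108 CPM in wt and 8.33 to 10.6 in KO at E15.5, at 227 to 306 and 15.1 to 19.1 at P5, at 311 to 353 and 18.9 to 27.2 at P9, and at 274 to 317 and 22.5 to 78.1 in adults. Each genotype thus matched its label, with no overlap. The endothelial markers were abundant at every stage, with Cldn5, the tight-junction claudin of brain vessels, at 968 to 9681 CPM and Pecam1, which encodes CD31, at 407 to 1530 CPM over the libraries.

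On build mm10 these genes are spread over the genome, and their positions are those of the deposited tables. Mobp lies at 120149742 to 120181484 on chromosome 9 (plus strand), Mal at 127633226 to 127656695 on chromosome 2 (minus), Cnp at 100574904 to 100591729 on chromosome 11 (plus) and Mag at 30899176 to 30914873 on chromosome 7 (minus). Mog lies at 37010743 to 37023398 on chromosome 17 (minus), Ermn at 58045113 to 58052864 on chromosome 2 (minus), Hapln2 at 88021750 to 88027583 on chromosome 3 (minus) and Klk6 at 43824499 to 43832027 on chromosome 7 (plus). All 9 are annotated as protein-coding and none shares its strand with another annotated gene at its position. Reads were counted by strand, which sets them apart from the genes that lie opposite Mog, Mbp, Cnp and Ermn.

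The sequences before the start sites of 3 members are shown. Over all 24 libraries together, Mobp and Mag followed the other members more closely than Mal did. They are 150 bases each, 5′ to 3′ on the gene's strand, from RefSeq on GRCm38.p6, with matches to 4 short motifs in capitals. The motifs, searched on both strands, were ACAAAG and ACAATG, which SOX proteins such as Sox10 can bind, CTGGCAC, a core that the myelin regulator Myrf can bind, and CAGCTG, an E-box.
Mobp, chr9:120149592-120149741, plus strand: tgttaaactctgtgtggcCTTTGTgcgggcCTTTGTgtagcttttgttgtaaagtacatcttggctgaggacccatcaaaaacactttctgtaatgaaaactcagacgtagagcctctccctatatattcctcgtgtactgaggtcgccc
Mag, chr7:30914923-30915072, minus strand: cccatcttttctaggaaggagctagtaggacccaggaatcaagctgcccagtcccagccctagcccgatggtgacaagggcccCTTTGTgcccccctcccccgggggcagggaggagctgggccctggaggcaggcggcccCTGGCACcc
Mal, chr2:127656696-127656845, minus strand: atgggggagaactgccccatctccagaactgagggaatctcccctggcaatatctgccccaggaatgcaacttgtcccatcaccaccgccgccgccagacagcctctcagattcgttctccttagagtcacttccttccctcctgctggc

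Over the 250 bases before the start, the Mobp window held 6 matches to ACAAAG, Mag held 1 to ACAAAG and 1 to CTGGCAC, and Mal held none of the 4 motifs. Mog, which followed the other members more closely than Mal, also held none. Ermn, which did not follow them over the 24 libraries together, held 1 match to ACAATG. Of the 8 members searched, 4 held ACAAAG, against 16.5% of 32851 windows of the same length. ACAATG was in 3 of 8, against 10.7% of windows, CTGGCAC in 3 of 8 (Mag, Cnp and Hapln2), against 4.19%, and CAGCTG in 1 of 8, against 13.0%. These are matches of letters, and binding was not measured. RefSeq listed 3 starts for Mag and 2 for Klk6, and only the most upstream was searched. For Mag that start, 30914922, lies outside the gene span given above. The 32851 windows were not cut to 1 start per gene, so the percentages are not fully like for like.

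Transcripts of the 9 genes took up a growing share of the library with age. They made up 0.00561% ± 0.00083 of all counts in wt at E15.5, 0.0365% ± 0.00853 at P5, 0.104% ± 0.0294 at P9 and 1.46% ± 0.116 in adults (SD, n = 3). The KO libraries held 0.00511% ± 0.000703, 0.0341% ± 0.00347, 0.0970% ± 0.0271 and 1.34% ± 0.211. The stages did not overlap in this share within a genotype, and the genotypes overlapped at every stage. Per length of transcript, the 9 genes summed to 12025 to 13664 TPM, a level scaled to gene length and library, in adult wt libraries, beside 13870 to 15386 for 12 endothelial identity genes. At E15.5 the same sums were 46.4 to 60.4 and 6232 to 7010. In bulk RNA, fewer oligodendrocytes and less RNA per oligodendrocyte cannot be told apart.

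**Figure D1:**
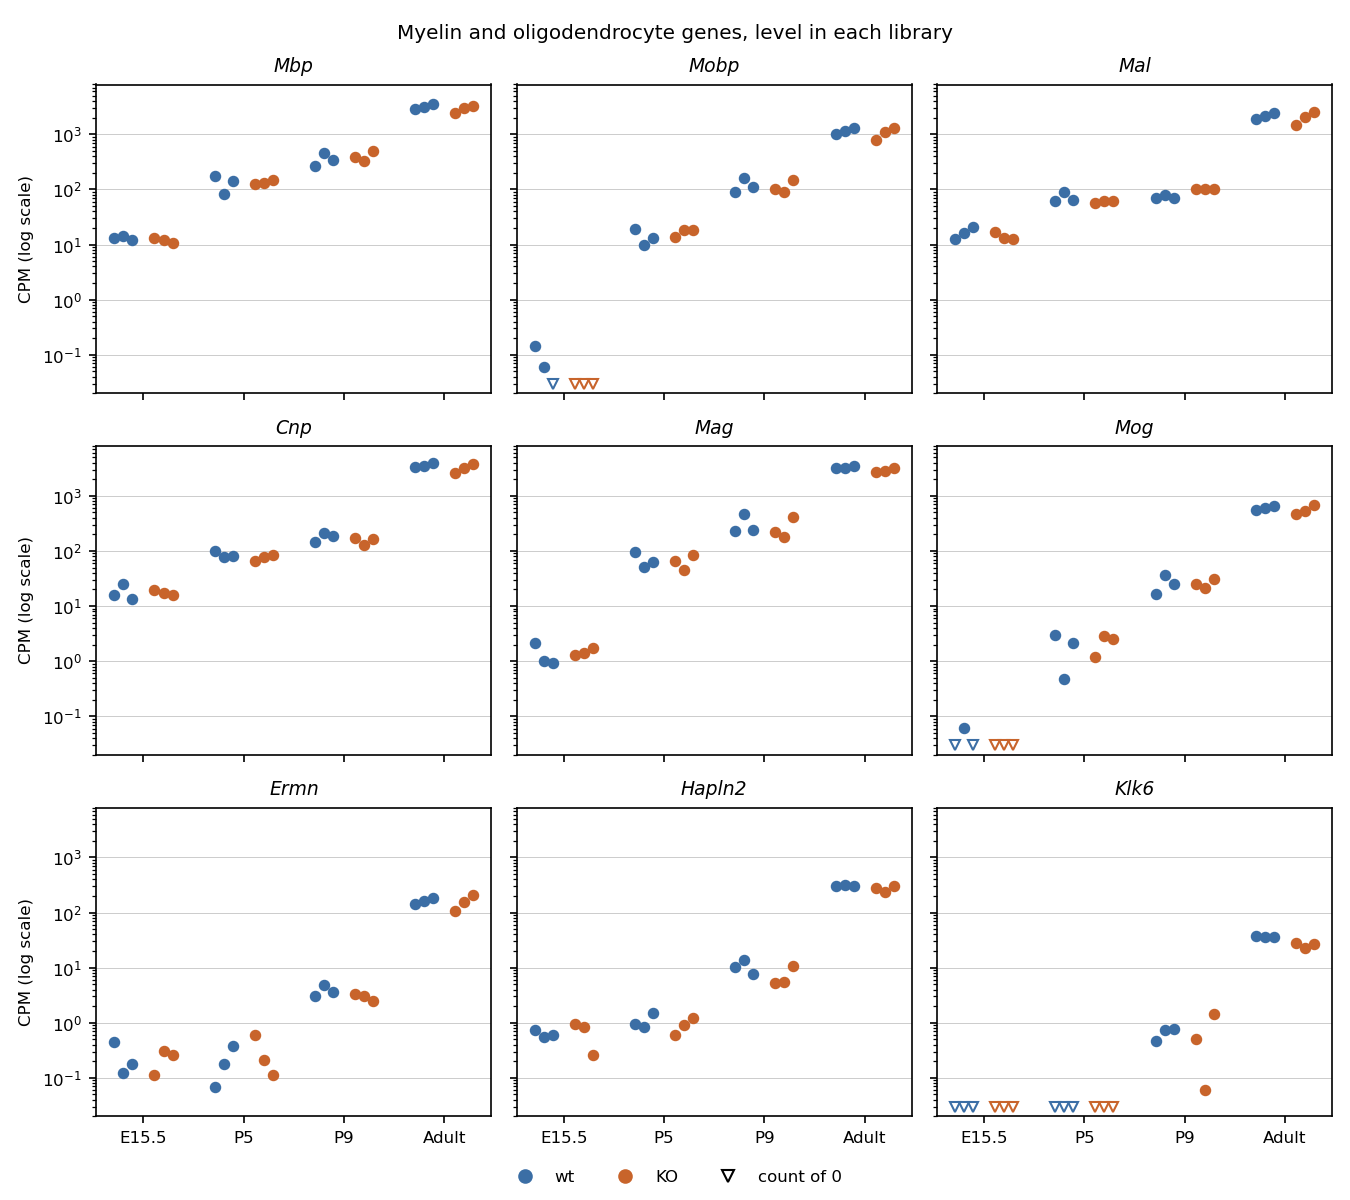
CPM of each gene in each of the 24 libraries (log axis), wt in blue and KO in orange, with open triangles at the bottom for a count of 0. Every gene is highest in adults, where Cnp reaches 3995 CPM, and Klk6 has no count at E15.5 or P5.

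Mbp encodes the basic protein that draws the cytoplasmic faces of the membrane together, and its mRNA is carried out to the myelin. On mm10 the gene spans 82475146 to 82585637 on the plus strand of chromosome 18, which also holds the longer Golli transcripts that the gene counts do not separate. It was at 13.3, 14.0 and 12.3 CPM in the wt libraries at E15.5, 178, 82.2 and 143 at P5, 266, 452 and 335 at P9, and 2873, 3126 and 3504 in adults. The KO libraries stood at 13.1, 11.9 and 10.5, then 125, 132 and 148, then 386, 323 and 493, then 2386, 2980 and 3327 CPM. No stage overlapped the next in either genotype. In wt it rose by 3.35 ± 0.24 on the log2 scale from E15.5 to P5 (adjusted p = 4.24e-11, edgeR's quasi-likelihood test), by 1.39 ± 0.21 from P5 to P9 (adjusted p = 0.000415) and by 3.17 ± 0.23 from P9 to adult (adjusted p = 3.09e-11; errors here and below are standard errors).

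Mobp encodes a second small basic protein of compact myelin that appears later than Mbp. At E15.5 it had 3 counts in the wt libraries together and none in KO. At P5 it was at 19.3, 9.61 and 13.3 CPM in wt and 13.9, 18.5 and 18.2 in KO. At P9 the values were 90.1, 164 and 109 in wt and 102, 89.1 and 146 in KO, and in adults 1024, 1152 and 1327 against 799.9, 1104 and 1294. The libraries of successive stages did not overlap. The ratio of wt P5 to wt E15.5 was 218 (95% interval of the counts 74.2 to 1058), and KO P5 was at least 338-fold higher than a floor of 3 counts over the KO E15.5 libraries. From P5 to P9 wt rose by 3.11 ± 0.26 (adjusted p = 6.91e-07), and from P9 to adult by 3.27 ± 0.25 (adjusted p = 3.86e-10).

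Cnp encodes a phosphodiesterase that holds open the cytoplasm-filled channels of myelin and is made from early in the lineage. Its wt libraries were at 16.0, 25.7 and 13.7 CPM at E15.5, 99.5, 76.3 and 82.3 at P5, 143, 210.1 and 188 at P9, and 3325, 3483 and 3995 in adults. In KO they were at 19.6, 17.6 and 16.1, then 66.5, 76.3 and 83.7, then 174, 129.7 and 165, then 2572, 3177 and 3733 CPM. The steps in wt were rises of 2.22 ± 0.20 (adjusted p = 1.85e-09), 1.07 ± 0.19 (adjusted p = 0.00153) and 4.32 ± 0.21 (adjusted p = 5.08e-14). From P5 to P9 no called member rose less in wt, and the last step took Cnp to the top of the 9 genes per length.

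Mal encodes a proteolipid that sorts membrane proteins into myelin, and it is also made by polarised epithelia and T cells. It was at 12.7, 16.2 and 21.0 CPM in wt at E15.5, 62.7, 88.1 and 64.0 at P5, 71.0, 77.6 and 70.2 at P9, and 1885, 2179 and 2417 in adults. Unlike the other 8, its wt libraries at P5 and P9 overlapped: the change was 0.03 ± 0.17 (adjusted p = 0.957), and its sign turned under DESeq2 size factors and other settings. The KO libraries were at 16.9, 12.9 and 12.6, then 55.9, 62.6 and 61.1, then 102, 104 and 103, then 1497, 2066 and 2539 CPM. In KO the step from P5 to P9 was a rise of 0.78 ± 0.18 (adjusted p = 0.0013). From P9 to adult Mal rose by 4.89 ± 0.20 in wt and 4.30 ± 0.20 in KO (adjusted p = 3.05e-15 and 1.86e-14).

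Mag encodes an adhesion protein on the innermost myelin layer, facing the axon. It went from 2.12, 1.03 and 0.943 CPM in wt at E15.5 to 94.6, 51.6 and 62.7 at P5, then 234, 463 and 244 at P9 and 3212, 3218 and 3499 in adults. In KO it was at 1.27, 1.38 and 1.75, then 66.3, 45 and 86.0, then 221, 179 and 412, then 2728, 2810 and 3137 CPM. Its rise from E15.5 to P5, 5.70 ± 0.41 (adjusted p = 4.25e-11), was a larger step than its rises of 2.17 ± 0.30 to P9 (adjusted p = 0.0001) and 3.40 ± 0.31 to adult (adjusted p = 1.83e-09).

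Mog encodes an immunoglobulin-like protein on the outer face of the sheath, a marker of mature oligodendrocytes and a target in experimental autoimmune encephalomyelitis. Of the E15.5 libraries, 1 wt library had 1 count and the others none. At P5 its levels were 3.04, 0.483 and 2.17 CPM in wt and 1.2, 2.84 and 2.53 in KO. They were 16.4, 36.1 and 24.8 against 25.0, 21.0 and 30.7 at P9, and 561, 597 and 652 against 468, 536 and 674 in adults. The wt P5 libraries varied widely, and the library low for Mog, wt replicate 2, was also the lowest of the 3 for Mbp, Mobp and Mag. The ratio of wt P5 to E15.5 rested on 86 counts against 1 and was 86.9 (95% interval 15.2 to 3473), and KO P5 was at least 43.9-fold above the floor. The later rises were 3.79 ± 0.36 to P9 and 4.54 ± 0.30 to adult in wt (adjusted p = 2.21e-06 and 2.25e-11).

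Ermn, Hapln2 and Klk6 belong to late oligodendrocytes: ermin is a cytoskeletal protein of the outer sheath, Hapln2 links hyaluronan at nodes of Ranvier, and Klk6 is a secreted serine protease. Ermn was at 0.0692 to 0.598 CPM in all E15.5 and P5 libraries, which is 1 to 9 counts a library. At P9 it stood at 3.07, 4.81 and 3.57 CPM in wt and 3.36, 3.04 and 2.53 in KO, and in adults at 142, 159.5 and 185 against 109, 155 and 212. Between E15.5 and P5 it did not pass the test in either genotype, and it then rose by 4.12 ± 0.46 to P9 and 5.40 ± 0.26 to adult in wt (adjusted p = 1.09e-05 and 3.94e-14). Without P5 wt replicate 3 the rise to P9 was 4.82.

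Hapln2 was also low before P9. It was at 0.732, 0.544 and 0.589 CPM in wt at E15.5, 0.968, 0.846 and 1.53 at P5, 10.1, 14.0 and 7.71 at P9, and 299, 316 and 299.8 in adults. The KO values were 0.941, 0.847 and 0.258, then 0.598, 0.901 and 1.24, then 5.30, 5.40 and 10.7, then 277, 236 and 297 CPM. The wt libraries at E15.5 and P5 did not overlap, but the change of 0.85 ± 0.49 did not pass (adjusted p = 0.13), and it was called with no low-count filter (0.78, adjusted p = 0.0456). Hapln2 then rose by 3.25 ± 0.31 to P9 and by 4.83 ± 0.24 to adult in wt (adjusted p = 1.47e-06 and 5.89e-14).

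Klk6 had no count in any of the 12 libraries of E15.5 and P5. At P9 it was at 0.458, 0.735 and 0.785 CPM in wt and 0.504, 0.0607 and 1.44 in KO, from 1 to 25 counts a library. The wt P9 libraries, with 31 counts in all, were at least 10.3-fold higher than the floor of P5, and KO P9 at least 11-fold. The wt call for that step (adjusted p = 0.0174) was lost without P5 wt replicate 3 (adjusted p = 0.062) and without P9 wt replicate 2 (adjusted p = 0.0626). In adults Klk6 reached 37.7, 35.4 and 36.3 CPM in wt and 27.7, 22.4 and 27.3 in KO. The rise from P9 to adult was 5.77 ± 0.43 in wt and 5.21 ± 0.43 in KO (adjusted p = 1.28e-08 and 4.53e-08). Without P9 KO replicate 3, which held 25 of that group's 32 counts, the KO rise was 6.64.

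Counted together, 6 of the 9 genes rose from E15.5 to P5 in wt, all but Ermn, Hapln2 and Klk6, beside 36.2% of the 17159 genes tested that rose, and the same number rose in KO, beside 37.4%. From P5 to P9, 8 of 9 rose in wt, all but Mal, beside 2.67% of genes, and 9 of 9 in KO, beside 17.5%. From P9 to adult all 9 rose in both genotypes, beside 30.8% of genes in wt and 30.4% in KO. The median log2 change of the 9 was 2.22, 3.11 and 4.54 over the 3 steps in wt, and that of all genes 0.09, 0.00073 and 0.02. All 9 passed the filter on low counts, which asked for a mean of 10 counts in any of the 8 groups. In wt, however, 4 reached that mean at E15.5 and 7 at P5, and all 9 at P9 and in adults, so the low ones entered through the later stages where they are high. The step from P5 to P9 also changed the dissociation kit and the time since tamoxifen. The steps to P5 and to adult changed the tamoxifen schedule. Stage, kit, schedule and time since tamoxifen cannot be told apart in these comparisons.

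The scale matters most for the step from E15.5 to P5, where the 12 endothelial identity genes themselves all rose. Scaled to those genes, the median log2 change of all tested genes was −1.55 in wt and in KO over that step, beside 0.09 and 0.10 under TMM. On that scale the rises of Mbp, Mag, Mal and Cnp in wt were 1.72, 4.06, 0.45 and 0.59, all still called, and Hapln2 was at −0.78 in wt and, called, at −1.21 in KO. From P9 to adult the median of all genes on that scale was 0.48 in wt and 0.80 in KO, beside 0.02 and 0.03 under TMM, and the rises of all 9 genes stayed called. In KO these rises ran from 3.63 for Mbp to 6.53 for Ermn.

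The 9 genes differed in when they rose relative to their adult level. In wt at P5, Mbp stood at 4.24% of its adult mean, Mal at 3.31%, Cnp at 2.39%, Mag at 2.10% and Mobp at 1.2%. Hapln2, Mog and Ermn were at 0.366%, 0.315% and 0.130%. By P9 Mbp, Mobp and Mag had reached 11.1%, 10.4% and 9.48%, Cnp 5.01%, Mog 4.27%, Hapln2 3.49%, Mal 3.38%, Ermn 2.35% and Klk6 1.81%. Mal thus stood below only Mbp in this order at P5 and above only Ermn and Klk6 at P9, while Mobp moved up to just below Mbp. The same percentages in KO at P9 were 13.8% for Mbp, 10.5% for Mobp, 9.36% for Mag and 5.06% for Mal. These are ratios of group means, given as a description.

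**Figure D2:**
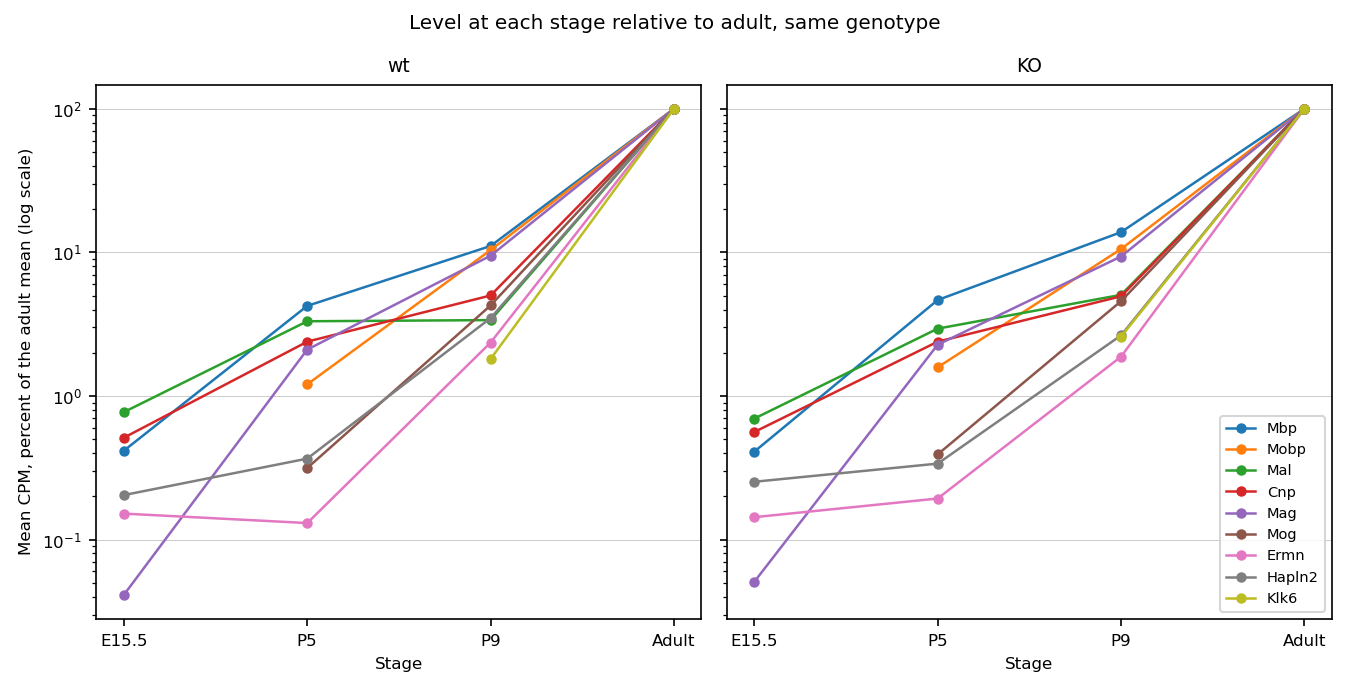
Mean CPM at each stage as a percentage of the adult mean of the same genotype (log axis), 1 line per gene, with groups of 3 counts or fewer left out. Mal is flat between P5 and P9 in wt (3.31% and 3.38%), while Mobp goes from 1.2% to 10.4%.

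Per length, the order of the genes changed with stage. Each gene was scaled by 1 listed length, 8403 bases for Mbp and 2778 for Mal, and the order depends on those lengths. By CPM, adult wt Mbp (mean 3167) was above Mal (mean 2160). In wt at E15.5 Mal (23.9 ± 5.78 TPM) and Cnp (20.2 ± 7.0) were highest and their libraries overlapped, ahead of Mbp at 6.26 ± 0.447. At P5 Mal, Cnp, Mag and Mbp, at 82.8, 76.8, 55.8 and 52.3 TPM, each overlapped the next, and all were clear of Mobp at 7.09. At P9 Mag led at 248 ± 101 TPM, overlapping Cnp (159.9 ± 31.6), which overlapped Mbp (135 ± 35.9), and Mal was clear below at 84.5 ± 4.32. In adult wt the order was Cnp (3430 ± 256), Mag (2819 ± 80.6), Mal (2695 ± 277), Mbp (1306 ± 102), Mog (1227 ± 66.7), Mobp (624 ± 67.4), Hapln2 (446 ± 18.3), Ermn (154 ± 17.3) and Klk6 (87.0 ± 4.08). Among these neighbours Mag and Mal, and Mbp and Mog, overlapped, and the other 6 pairs did not. In adult KO Mal stood ahead of Mag, at 2621 ± 682 and 2540 ± 198 TPM, with overlapping libraries.

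KO was then compared with wt at each stage, which asks whether loss of Sox17 in the endothelium goes with a change in these transcripts. No member passed at E15.5, P5 or in adults, where 0.548%, 0.53% and 0.0874% of all tested genes did. None of the 9 reached an unadjusted p under 0.05 at those 3 stages. DESeq2, robust limma-trend and the fits of the 6 libraries alone also called 0 members there. At P9 1 of 9, Mal, was called, beside 28.0% of all genes in either direction and 13.5% that were higher. A share of 1 in 9 is not above that background.

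Mal was the exception at P9. The 3 KO libraries, at 102, 104 and 103 CPM, all lay above the 3 wt libraries at 71.0, 77.6 and 70.2, a difference of 0.50 ± 0.17 on the log2 scale (adjusted p = 0.0358, edgeR's quasi-likelihood test), or 1.41-fold. It was the 1 member whose libraries were all higher in KO, beside 19.0% of all genes. At P5 the KO libraries, at 55.9 to 62.6 CPM, all lay below wt, at 62.7 to 88.1, as in 7.22% of all genes, but the difference of −0.26 ± 0.18 did not pass (adjusted p = 0.782). At E15.5 and in adults the genotypes overlapped, with differences of −0.24 ± 0.19 and −0.09 ± 0.17 (adjusted p = 1.0 at both). The change of the difference from P5 to P9, tested as an interaction, was 0.75 ± 0.25 (adjusted p = 0.0391), and Mal was the 1 member called in it, beside 15.7% of all genes. The change from P9 to adult was −0.58 ± 0.24 (adjusted p = 0.125), where no member passed, beside 13.2% of genes. An F test over all 4 stages did not call it (adjusted p = 0.101), nor any other member, beside 13.5% of genes. The P9 call was narrow: leaving out any 1 of the 6 libraries gave 0.47 to 0.54 with adjusted p of 0.0565 to 0.1. Scaling to the endothelial identity genes gave 0.23 (adjusted p = 0.298), where the median of all tested genes was −0.24, beside 0.02 under TMM. The interaction was lost on that scale too (0.52, adjusted p = 0.132), and on leaving out 10 of the 12 libraries in turn it was 0.57 to 0.80, the lowest without P5 wt replicate 2.

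Among the other members at P9, Hapln2 differed most. Its KO libraries, at 5.30, 5.40 and 10.7 CPM, lay mostly below wt, at 10.1, 14.0 and 7.71, with a difference of −0.56 ± 0.24 that did not pass (adjusted p = 0.085). It was called without P9 KO replicate 3 (−1.01, adjusted p = 0.00209), without P9 wt replicate 3 (−0.74, adjusted p = 0.036) and with no low-count filter (−0.56, adjusted p = 0.00259). It was also called on the endothelial scale (−0.81, adjusted p = 0.0236), where the median of all tested genes was −0.24. Without P9 wt replicate 2 it shrank to −0.30 (adjusted p = 0.43), and it was not called without P9 KO replicate 1 or without P9 KO replicate 2. The libraries of the other 7 members overlapped between genotypes at P9.

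In adults the fitted difference was below 0 for every member, though none passed and the sign of 4 of them rested on 1 library. The 9 log2 differences lay between −0.50 (Klk6, ± 0.31) and −0.03, with a median of −0.13 beside 0.01 for all genes. All KO libraries lay below all wt libraries for Mag, Hapln2 and Klk6, 3 of 9, beside 5.79% of all genes. For Hapln2 the difference was −0.17 ± 0.20, and for Cnp, whose libraries overlapped, −0.19 ± 0.18. The members are not independent of each other here, since KO replicate 1 was the lowest library for Mbp, Mobp, Mal, Cnp, Mag, Mog and Ermn. Without that library the differences turned to 0.0034 for Mog, 0.038 for Mobp, 0.092 for Mal and 0.178 for Ermn. Without Adult wt replicate 3 they were 0.0015 for Mal and 0.073 for Ermn. On the endothelial scale Ermn was at 0.027, beside a median of 0.064 for all genes.

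**Figure D3:**
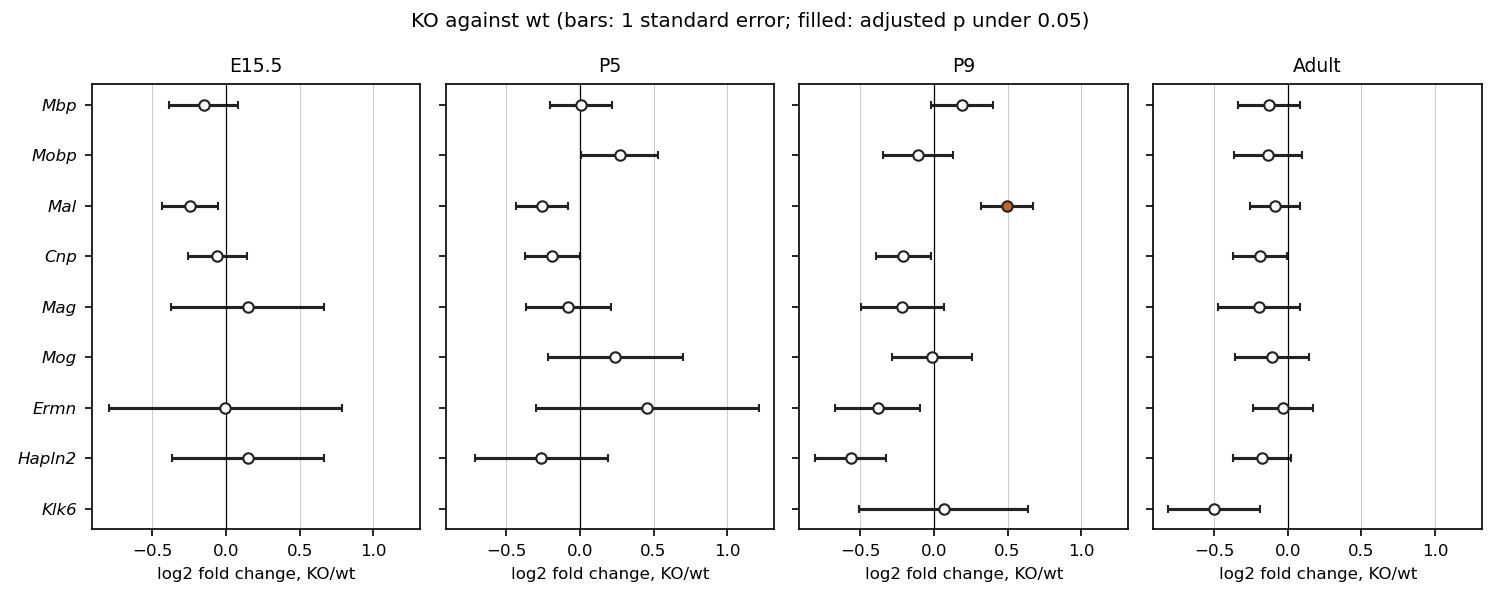
Log2 fold change of KO over wt for each gene at each stage, with bars of 1 standard error and a filled point where the adjusted p was under 0.05, and genes with 3 counts or fewer in a group left out. Mal at P9 (0.50) is the only filled point, and in adults all 9 points lie left of 0, of which Mog, Mobp, Mal and Ermn turn without KO replicate 1.

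Within a group, several of the genes moved together from library to library. At P9, wt replicate 2 was the highest wt library for all 9 but Klk6, with log2 deviations from the group mean of 0.64 for Mag, 0.56 for Mog, 0.48 for Mobp and 0.40 for Mbp. KO replicate 3 was the highest of its group for Mag (0.70), Hapln2 (0.66), Mobp (0.41), Mbp (0.32), Mog (0.28) and Klk6 (1.46). Ermn and Cnp did not follow, at −0.21 and 0.09, and Mal was within 0.09 of its group mean in every P9 library. In KO replicate 3, neuron markers had a median deviation of 0.96, premyelinating oligodendrocyte markers 0.66, precursor markers 0.61 and oligodendrocyte transcription factors 0.45. In wt replicate 2, the same lists were at 0.05, 0.03, −0.11 and 0.24, in that order. The part of these other cells in the spread of the members was not tested.

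**Figure D4:**
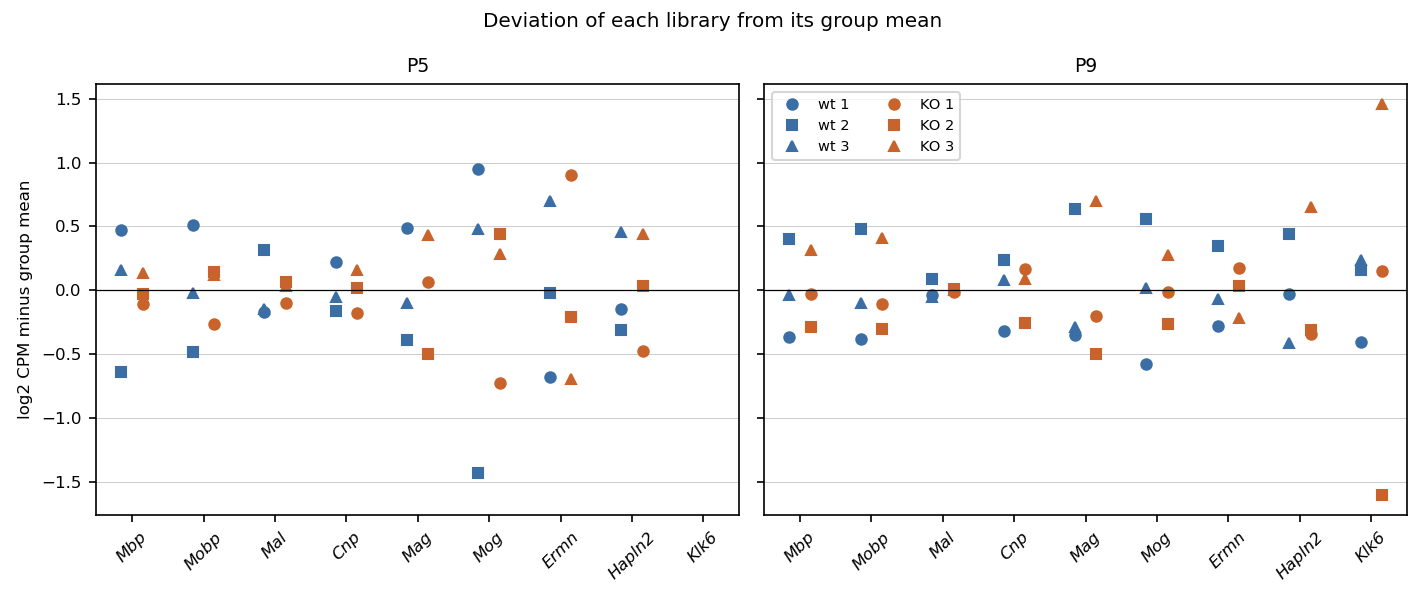
Log2 CPM of each library minus its group mean at P5 and P9, with colours for genotype and shapes for replicate. Replicate numbers were not taken to link genotypes, and Klk6 has no count at P5. P9 wt replicate 2 and KO replicate 3 lie high for Mag, Mobp and Mbp, while Mal at P9 lies within 0.09 of 0.

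Over all 24 libraries, after group means were removed, each gene was correlated with the mean of the other 8, as a description of libraries that share preparation and depth. Pearson's r was 0.88 for Mbp, 0.82 for Mobp, 0.64 for Mag, 0.56 for Cnp, 0.55 for Mog, 0.45 for Hapln2 and 0.43 for Klk6. Ermn (−0.07) and Mal (−0.09) did not follow the others over all 24 libraries together. In adults of both genotypes, however, both moved with Mbp from library to library. In KO, replicates 1 and 3 were at −0.41 and 0.35 for Mal, −0.49 and 0.47 for Ermn, and −0.27 and 0.21 for Mbp. In adult wt they were at −0.19 and 0.17, −0.18 and 0.20, and −0.14 and 0.15 for the same genes. Among P9 wt libraries Ermn was at −0.28, 0.35 and −0.07, beside −0.36, 0.40 and −0.03 for Mbp. The r of Ermn includes E15.5 and P5 libraries with few counts, and that of Klk6 includes E15.5 and P5 libraries with none. The 10 tested genes outside the list most like the mean of the 9 were Gm15440 (0.91), Tyro3, Tmeff2, Ugt8a, Kcna2, Jakmip3, Eml6, Ntng1, Aplp1 and Aatk (0.84). One of these, Ugt8a, which makes the myelin lipid galactosylceramide, is in a list of lipid enzymes used below.

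The other genes of the sheath were described by the same steps. Of all tested genes, 36.2%, 2.67% and 30.8% rose over the 3 steps in wt, and the shares that fell are not given here. Of 14 further genes of the myelin sheath and its membranes, 10 rose and 1 fell from E15.5 to P5 in wt, 10 rose from P5 to P9, and all 14 rose from P9 to adult. Their median log2 changes were 2.37, 1.25 and 4.5, beside 2.22, 3.11 and 4.54 for the 9 members, and the difference between the lists was not tested. The gene that fell was Jam3, a junction protein made by several cell types, which was at 30.6 and then 23.3 CPM and was singled out after its values were seen. Opalin, a membrane protein of late oligodendrocytes, went from 1.34 CPM at P9 to 149 in adults, a rise of 6.78 ± 0.29. Of 7 genes listed as enzymes of myelin lipids, which include Qdpr, an enzyme of tetrahydrobiopterin, 6, 4 and 7 rose over the 3 steps. Among them were Ugt8a, by 2.19 ± 0.27 from P5 to P9, and Fa2h, a fatty acid hydroxylase, by 5.90 ± 0.26 from P9 to adult.

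Lists of lineage factors and of earlier cells were counted in the same way. Over the 3 steps 36.2%, 2.67% and 30.8% of all genes rose in wt, and 30.4% rose in KO over the last. Of 8 oligodendrocyte transcription factors, 7 rose to P5, 1 from P5 to P9 (Nkx6-2, 2.31 ± 0.40) and 8 from P9 to adult. Sox10, which marks the whole lineage, was at 2.59, 28.8, 22.7 and 322 CPM in wt. All 4 markers of premyelinating cells rose to P5, and from P5 to P9 Enpp6 rose by 0.96 ± 0.26 while Gpr17 fell by 1.21 ± 0.27. From P9 to adult 3 of these 4 rose in wt and all 4 in KO. Of 8 precursor markers, 5 rose and 1 fell to P5, 2 fell from P5 to P9, and 3 fell and 1 rose to adult. Pdgfra, the receptor that drives precursor division, was highest at P5, at 12, 144, 40.5 and 9.74 CPM over the stages. Pdgfra and Cspg4 are also made by fibroblasts and pericytes, and Cspg4 fell along with the pericyte list in the last step.

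Among markers of Schwann cells, the glia of peripheral nerve, Pmp2 had no count in any library. Prx, which endothelium also expresses, was at 9.23, 16.3, 11.1 and 4.80 CPM over the stages in wt. It rose by 0.82 ± 0.16 to P5, then fell by 0.55 ± 0.16 to P9 and by 1.21 ± 0.17 to adult. Ncmap was higher in KO at P9 (1.03 ± 0.34, at 3.04 against 1.5 CPM).

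Markers of other brain cells moved over the same stages. In wt from E15.5 to P5, all 11 neuron markers fell. Over that step 8 of 10 astrocyte, 8 of 9 microglia and 7 of 8 pericyte markers rose, beside 36.2% of all genes. In wt from P9 to adult, 8 of 10 astrocyte, 8 of 9 microglia and 5 of 11 neuron markers rose, beside 30.8% of genes. Over that step 8 of 8 pericyte markers fell. The share of all genes that fell is not given for any step. Summed levels in wt went from 585 to 674 CPM at P9 to 1719 to 2648 in adults for astrocytes, from 55.0 to 64.2 to 169 to 392 for microglia, from 201 to 220 to 378 to 535 for neurons, and from 2711 to 3737 down to 481 to 597 for pericytes. The members' sum over the same step went from 834 to 1423 up to 13358 to 15915 CPM. From P5 to P9 the lists went apart, with 6 of 9 microglia markers falling, 3 of 10 astrocyte markers rising, 2 neuron markers rising and 2 falling, and no pericyte or endothelial marker called, while 8 of the 9 members rose. Of all tested genes, 2.67% rose in wt from P5 to P9. How far each of these cell types bears on the members' values was not tested.

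Between genotypes at P9, the counts of each list stand beside the 28.0% of all tested genes that were called. In KO, 7 of 10 astrocyte markers were higher, led by Gjb6 (2.28 ± 0.26) and Slc1a2 (1.60 ± 0.17), and 5 of 8 pericyte markers were lower, led by Rgs5 (−1.70 ± 0.31). Of 12 endothelial identity genes, 5 were higher and 2 lower, with Robo4 at 1.04 ± 0.12, 1 of 9 microglia markers was higher and 1 lower, and 1 of 11 neuron markers was higher. Among the oligodendrocyte lists, Pdgfra was higher (0.75 ± 0.25) and Cspg4 lower (−0.97 ± 0.33), and none of the transcription factors or premyelinating markers was called. In the lists of sheath genes and lipid enzymes, 3 genes were lower. These were Tspan2, a tetraspanin (−0.71 ± 0.15, adjusted p = 0.00088), Pllp, a proteolipid (−0.44 ± 0.13, adjusted p = 0.0165), and Qdpr (−0.55 ± 0.11), which regenerates tetrahydrobiopterin.

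**Figure D5:**
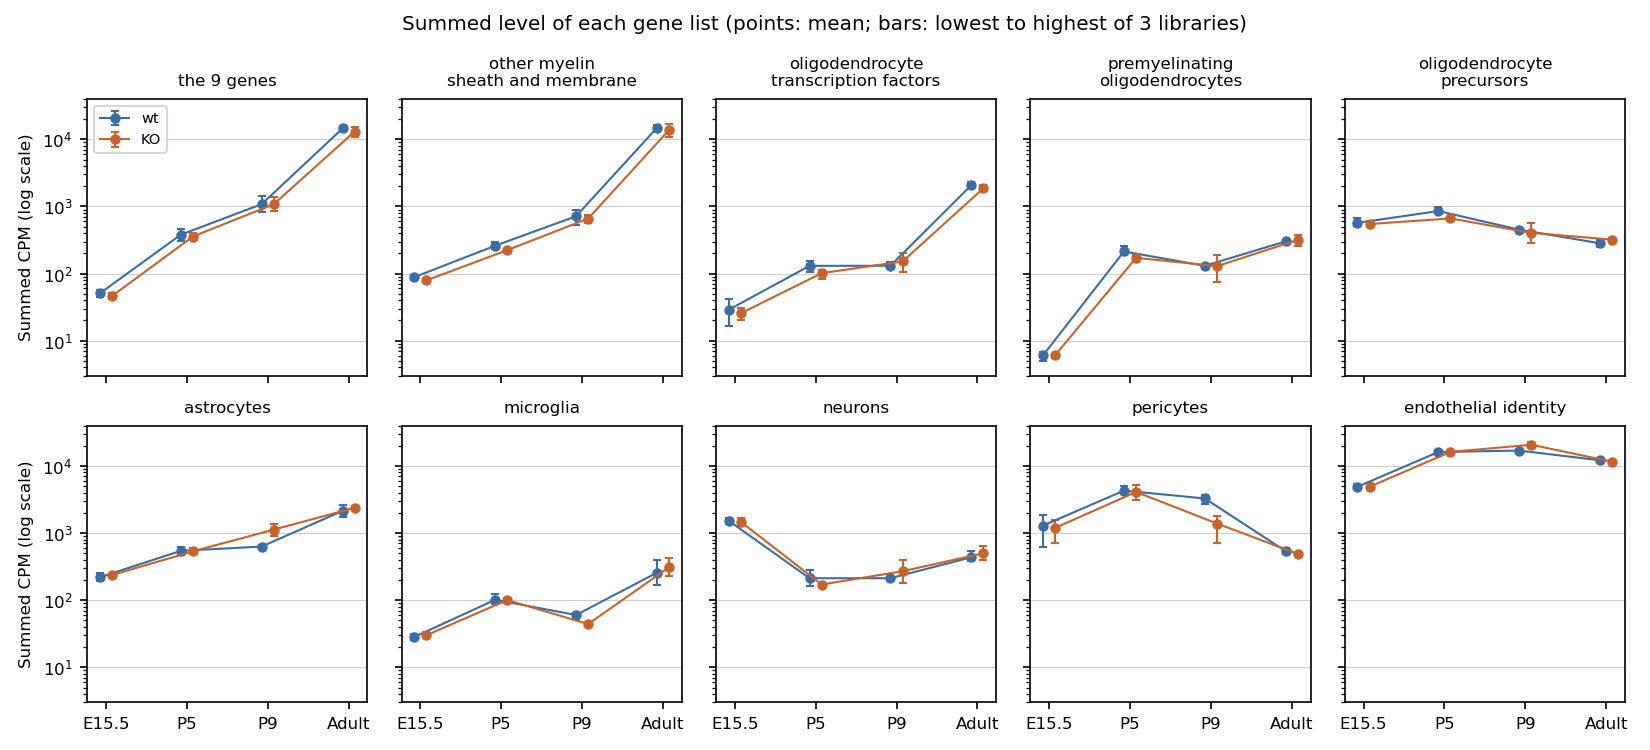
Summed CPM of each gene list at each stage (log axis), as the mean of 3 libraries with bars from the lowest to the highest, wt in blue and KO in orange. The sums of the 9 genes and of the other myelin genes are higher at each later stage, while the precursor list is highest at P5 and the pericyte list falls in adults.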

How the data were processed

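The deposited tables, 1 for each of 24 libraries, list 45468 genes on build mm10, and per the file headers each row holds a raw count, taken from 1 strand and deposited unscaled. Per the file headers they also hold the authors' FPKM (the count over gene length and library total) and the authors' TPM, used here to compare levels between genes. The submitters' processing notes name STAR 2.5.3a, SAMtools 1.5, FastQC and Trim Galore 0.4.1, without roles. The annotation release is not given in the sources used here.

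Counts were scaled by TMM and tested with edgeR 4.0.16 (quasi-likelihood, R 4.3.3) over all 24 libraries, with 1 mean per group, 16 residual degrees of freedom and the 17159 genes whose mean reached 10 counts in any group. P values, two-sided, carry the Benjamini-Hochberg adjustment over those genes, and "called", "rose", "fell" and "passed" mean an adjusted p under 0.05. With 1 to 3 counts in a group a ratio of counts with its 95% interval is given, and with none a lower bound against 3 counts over the group. Deviations are of log2 CPM with a prior count of 2. The method was tested on simulated data.

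The members and all gene lists were chosen with earlier results of these data known. All 9 members were named, with Sox10, Pdgfra, Cldn5 and Pecam1, up to 4 called genes of each other list with the smallest adjusted p per comparison, and the 10 genes most like the members. Other lists were of myelin sheath genes, lipid enzymes, oligodendrocyte factors, premyelinating cells, precursors, Schwann cells, neurons, astrocytes, microglia, pericytes and endothelium. The 13 comparisons were KO against wt at each stage, each stage against the one before in each genotype, and 3 tests of the difference between stages. Alternatives were DESeq2 1.42.0 size factors and its test, limma 3.58.1, no low-count filter, scaling to endothelial genes, a replicate block, the 6 libraries alone, FPKM for TPM and leaving out each library. The promoter sequence of Mbp and the values of 2 other listed genes are not reported here.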

Additional observations from a re-analysis of the deposited data

Results flagged for a closer look

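The difference between KO and wt in Mal changed from P5 to P9 by 0.75 on the log2 scale (edgeR's quasi-likelihood interaction test, adjusted p = 0.0391). KO was below wt at P5 (59.9 ± 3.51 against 71.6 ± 14.3 CPM, SD, n = 3) and above it at P9 (103 ± 0.845 against 72.9 ± 4.09). Both stages had the same tamoxifen dose at postnatal day 1, so the time from dose to harvest differed. The dissociation kits differed too, and the 4 groups are the same ones compared above. At P9, 15.7% of all tested genes passed the same test of a change from P5, and no other member did. The part of the time since tamoxifen, of the kit, of other cells or of scaling in the change of Mal was not tested. The 1 exception is the endothelial scale, on which the change did not pass.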

How the results depend on the processing

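No called value of a member changed sign under any alternative run, and over the steps between stages the counts called were 6 to 7, 7 to 8 and 9 in wt and 6 to 7, 9 and 9 in KO, the added gene being Hapln2, higher in wt with no low-count filter and lower in KO on the endothelial scale. The share of all genes called under each alternative is not given here, so these counts are not read as results about the members. At P9, 2 members were called against wt with no low-count filter, and 0 to 1 on leaving out a library. For the change from P5 to P9 the count was 0 on the endothelial scale and 0 to 1 on leaving out a library. For the change from P9 to adult it was 1 with no filter (Mal, −0.59) and 0 to 1 on leaving out a library, with Hapln2 called without P9 KO replicate 3 (0.83) and Mal without Adult KO replicate 3 (−0.78). For the F test it was 1 with no filter or with DESeq2, and 0 to 1 on leaving out a library, each time Mal (adjusted p = 0.00053, 0.0232 and, without Adult KO replicate 3, 0.0483). Uncalled values that turned in sign were Mal from P5 to P9 in wt (−0.0036 with DESeq2 size factors, −0.0035 with the DESeq2 test, −0.041 on the endothelial scale, −0.060 to 0.20 on leaving out a library), Hapln2 and Ermn from E15.5 to P5 on the endothelial scale (Hapln2 −0.78 in wt and −1.21 in KO, Ermn −1.28 in KO), Ermn over that step on leaving out a library (−0.82 to 0.50 in wt, −0.56 to 0.78 in KO), and Mal in adult KO (−0.28 to 0.092). The cause was not tested. Another 13 uncalled values of KO against wt, or of its change between stages, turned with all libraries and 28 with a library left out.

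Whether replicate numbers pair the genotypes was not settled. At E15.5 correlations were 0.06 to 0.49 for same-numbered libraries and −0.47 to 0.25 for libraries of different number. At the later stages they were −0.08 to 0.09 and −0.14 to 0.09. At P9 the 1 member called on the endothelial scale, where the median of all tested genes was −0.24, was Hapln2, not Mal. With the replicate block no member's call changed, and Mal at P9 stood at 0.50 (adjusted p = 0.0197). FPKM gave the same order of the members as TPM in 8 of 8 groups. Depth limited Mog, Mobp, Ermn and Klk6 at E15.5 and Klk6 and Ermn at P5, at 0 to 9 counts a library.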
